A study of Mus musculus with 6 samples.

Results

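The circadian clock genes Dbp, Tef, Nr1d1, Nr1d2, Per1, Per2, Per3, Cry1, Cry2 and Arntl (also written Bmal1) were followed across all arrays of a study of TM4 cells. They were chosen by symbol, through the accession of each probe, and all 10 were among the 21479 genes and unnamed transcripts tested. They had 19 of the 56605 probes on an array, and 17 of these passed the filter on dim probes. The compared groups were TM4 cells given 10 µM 4-nitrophenol for 24 h (PNP; a nitrated phenol that occurs in diesel exhaust particles) (3 samples), and TM4 cells left untreated (treatment label None, taken as 0 µM) for 24 h (3 samples). TM4 is an established mouse line that is widely used as a model of Sertoli cells, the supporting cells of the testis. One colour was used, with 1 array for each sample. Whether the 3 samples of a group were grown as separate cultures is not in the labels. The p-values therefore refer to the scatter among these samples alone, and that scatter may be technical. The labels give 1 exposure time and no hour of harvest.

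In mammalian cells the clock is a loop of transcription. ARNTL pairs with CLOCK and switches on genes that carry E-box sequences, among them the Per and Cry genes, whose products return to the nucleus and block that pair. The same pair drives Nr1d1 and Nr1d2, which encode the REV-ERB repressors, and these act on Arntl through elements shared with the ROR activators. Dbp and Tef encode activators that bind D-box sequences and pass the rhythm on to output genes. Transcripts of Dbp, Nr1d1 and the Per genes therefore peak far from the peak of Arntl in a rhythmic cell, and Dbp swings widely in many tissues. Cultured fibroblast-like lines keep such a loop, although cells of a dish drift apart in phase unless they are reset together.

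Each of the 3 slides carried 2 arrays of this series, in places called array position 1 and array position 2 here. The places were read from the scanner output, and the labels do not say which samples were processed together. Position 2 held PNP replicates 1 and 3 and untreated replicate 2, and position 1 held PNP replicate 2 and untreated replicates 1 and 3. Both groups were thus present at both positions. All levels below are log2 signals relative to the 75th percentile of the same array, and levels of different genes come from different probes and are not set against each other. Between 51.6% and 55.2% of probes were well above background at position 2 and between 47.8% and 57.9% at position 1, and no spot was saturated. The number of arrays limits the precision. Of 12 Sertoli cell markers 9 passed the filter (Amh, Cldn11 and Fshr did not), none of 6 Leydig and of 4 endothelial cell markers did, and 1 of 5 germ cell, 2 of 4 macrophage and 4 of 4 peritubular myoid cell markers did.

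The 10 clock genes did not separate PNP from untreated cells, and most of them separated the array positions. None passed the test between the groups (limma, adjusted p of 0.630 or more), in either direction, against 0% of all genes called, and 0 had an unadjusted p under 0.05, against 9.93% of all genes. No member had groups that did not overlap, against 15.2% of all genes. Between the positions, Dbp and Nr1d1 passed as higher at position 2, against 2.54% of all genes called in either direction, 1.1% higher and 1.43% lower (limma, adjusted for the whole table, with treatment in the fit). At an unadjusted p under 0.05 there were 7 higher members and 1 lower one, which was Arntl, against 20.5% of all genes, 11.4% higher and 9.2% lower. The same 8 had positions that did not overlap, 7 higher and 1 lower, against 22.4% of all genes, 11.9% higher and 10.5% lower. In RNA of whole cultures a change in the share of cells and a change in RNA per cell cannot be told apart.

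**Figure D1:**
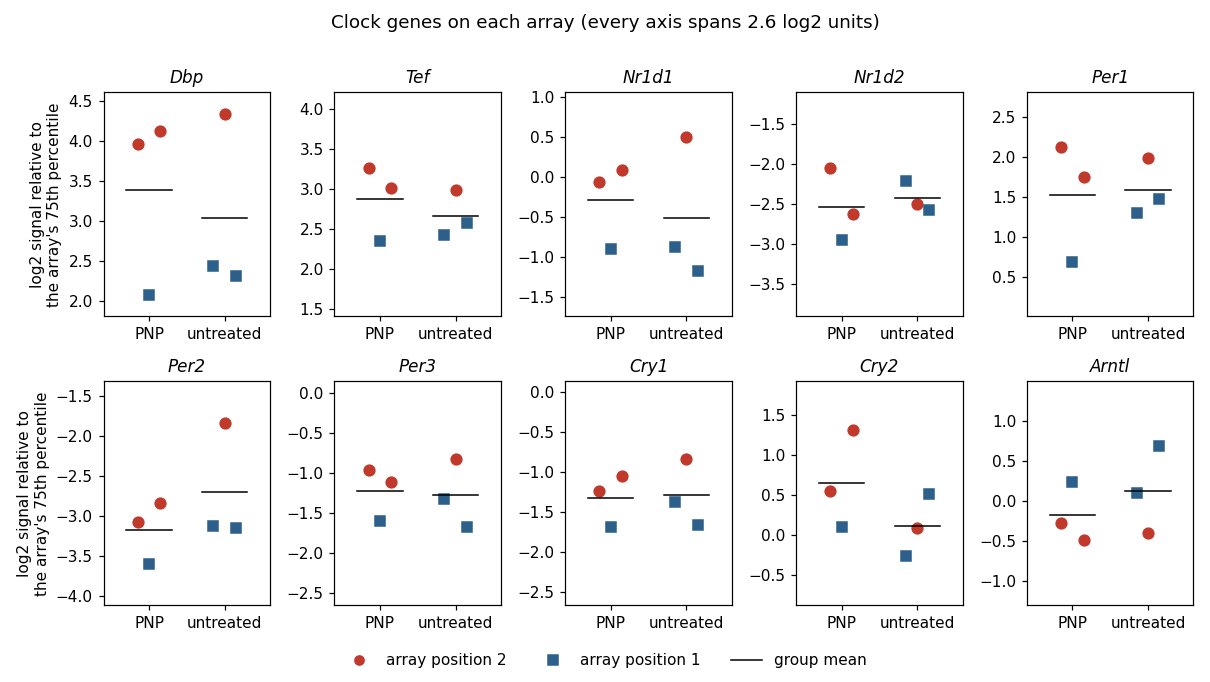
Log2 signal of each clock gene relative to the array's 75th percentile, on the 3 PNP arrays (left) and the 3 untreated arrays (right). Red circles are arrays at position 2, blue squares arrays at position 1, and lines are group means. The Dbp arrays at position 2 sit between 3.96 and 4.34 and those at position 1 between 2.08 and 2.44, in both groups, and Arntl runs the other way.

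Sequences are shown for 6 members as examples of the letters of known clock elements near their starts. They come from RefSeq, build GRCm38.p6, windows from 250 bases before to 50 after a transcript start, written along the gene's own strand. Capitals mark the searched letters. 9 of the 10 members matched the table, with 12 windows in all. Searched on both strands were CACGTG (E-box), CACGTT (an E-box variant), TTANGTAA (D-box) and TAGGTNA (the core of the element bound by REV-ERB and ROR proteins, here RORE core).
Per1, chr11:69098756-69098815, + strand: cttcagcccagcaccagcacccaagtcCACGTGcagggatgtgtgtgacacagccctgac
Tef, first start, chr15:81802519-81802578, + strand: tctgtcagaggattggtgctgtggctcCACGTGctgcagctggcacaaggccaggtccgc
Tef, second start, chr15:81811249-81811308, + strand: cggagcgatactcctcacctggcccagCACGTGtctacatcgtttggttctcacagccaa
Cry1, chr10:85185089-85185153, - strand: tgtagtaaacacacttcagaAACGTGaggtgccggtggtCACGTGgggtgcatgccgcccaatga
Nr1d1, chr11:98775378-98775427, - strand: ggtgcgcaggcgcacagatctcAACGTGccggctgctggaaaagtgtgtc
Per3, chr4:151044804-151044882, - strand: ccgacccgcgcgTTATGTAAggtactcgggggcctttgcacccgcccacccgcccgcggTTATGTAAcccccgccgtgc
Arntl, first element, chr7:113207493-113207516, + strand: ttggtcggaaagTAGGTTAgtggt
Arntl, second element, chr7:113207529-113207552, + strand: gaaggcagaaagTAGGTCAgggac

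E-box letters stood in the windows of 3 members, Per1 (166 bases before the start), Cry1 (60 bases) and Tef (127 and 138 bases for its 2 starts). These were 4 of the 12 member windows, and 7.15% of all 32851 windows held the letters. The E-box variant was found, on the opposite strand, in Nr1d1, Cry1 and Cry2, in 3 of the 12 member windows, and in 4.68% of all windows. Per3 held the D-box letters at 2 places, 205 and 158 bases before the start. They stood in 1 of the 12 member windows and in 2.32% of all windows. Arntl held the RORE core at 2 places around the later of its 2 starts. That core stood in 2 of the 12 member windows and in 8.29% of all windows. The windows of Dbp and Nr1d2 held none of these letters. A match is a description of the sequence and not a binding site shown here.

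**Figure D2:**
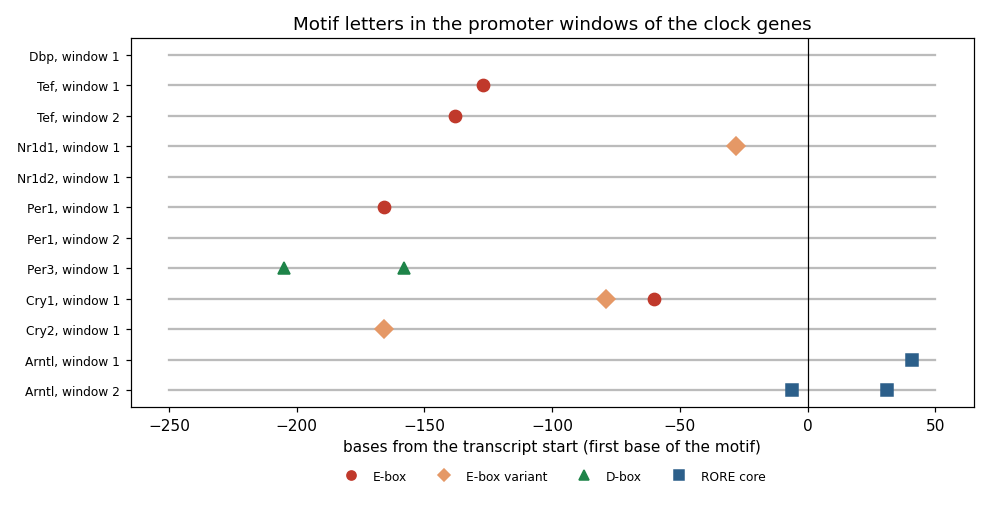
Places of the searched letters in the 12 promoter windows of the clock genes, in bases from the transcript start (vertical line). E-box letters (red circles) stand in Tef, Per1 and Cry1, D-box letters (green triangles) in Per3 and the RORE core (blue squares) in Arntl.

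Arntl, the activator of the loop, had log2 levels of -0.27, 0.24 and -0.49 on PNP arrays 1 to 3, against 0.10, -0.40 and 0.69 on untreated arrays 1 to 3. The 3 lowest arrays of both groups were those at position 2, and the groups overlapped. PNP cells averaged -0.17 ± 0.38 and untreated cells 0.13 ± 0.54 (SD, n = 3 each). The difference was -0.30, with a 95% confidence interval from -1.02 to 0.42 (limma, adjusted p = 0.781). By position, Arntl averaged -0.38 ± 0.11 at position 2 and 0.34 ± 0.31 at position 1 (SD, n = 3 each). It was lower at position 2 on every slide, by -0.49, -0.95 and -0.73 on slides 1 to 3. In the fit with treatment the difference was -0.70 ± 0.22 (SE) and did not pass over all genes (limma, adjusted p = 0.135). The other 2 Arntl probes had -1.22 ± 0.19 and -0.84 ± 0.21. The first of these, A_55_P2735445, was dim, with log2 levels from -3.42 to -1.81. This probe passed when every probe was tested as its own unit (limma, adjusted p = 0.0258).

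Per1 encodes a repressor of the loop that also responds quickly to hormones and serum. Its log2 levels were 2.13, 0.69 and 1.75 on PNP arrays 1 to 3, against 1.30, 1.99 and 1.48 on untreated arrays 1 to 3. The highest 3 arrays were those at position 2, and PNP replicate 2, at position 1, was the lowest. The group difference was -0.07 with an interval from -0.92 to 0.78 (limma, adjusted p = 0.968). Position 2 was higher than position 1 by 0.92 ± 0.23 (SE), and this did not pass (limma, adjusted p = 0.0809). With normexp background correction this position difference was 0.78 and passed (limma, adjusted p = 0.0323).

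Per2 encodes the partner of PER1 in the repressor complex. It was dim, with log2 levels of -3.07, -3.60 and -2.84 on PNP arrays 1 to 3, against -3.12, -1.83 and -3.15 on untreated arrays 1 to 3. Untreated replicate 2 stood apart above the other 5 arrays. The group difference was -0.47 with an interval from -1.34 to 0.40 (limma, adjusted p = 0.714). It ran from -0.69 to -0.03 on leaving out an array, and was -0.03 without untreated replicate 2. With array position in the fit it was -0.79 ± 0.22 (SE), the only member with an unadjusted p under 0.05 there, against 13.4% of all genes (limma, unadjusted p = 0.00716, adjusted p = 0.222). With normexp background correction as well, this Per2 difference was -0.50. By position Per2 differed by 0.97 ± 0.22 (SE; limma, adjusted p = 0.0623), and the values on slides 1 to 3 were 1.29, 0.08 and 0.76. This position difference passed with quantile normalization, median centring and the authors' values (limma, adjusted p = 0.0440, 0.0442 and 0.0441). With normexp background correction it was 0.61 and did not pass (limma, adjusted p = 0.0598). A second Per2 probe, well above background on 5 of 6 arrays, had a group difference of -0.21 ± 0.47 and a position difference of 0.01 ± 0.52 (SE).

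Per3, a further Period gene whose loss leaves the loop running in mice, had log2 levels of -0.96, -1.60 and -1.12 on PNP arrays 1 to 3, against -1.32, -0.83 and -1.68 on untreated arrays 1 to 3. Its groups had nearly the same mean, with a difference of 0.05 and an interval from -0.59 to 0.69 (limma, adjusted p = 0.968). All 3 arrays at position 2 exceeded all 3 at position 1. That difference was 0.62 ± 0.19 (SE) and did not pass (limma, adjusted p = 0.131). Its second probe was well above background on 1 of 6 arrays and was not tested.

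Cry1, the stronger Cryptochrome repressor of ARNTL and CLOCK, also had its 3 highest levels at position 2. Its log2 levels were -1.24, -1.69 and -1.05 on PNP arrays 1 to 3, against -1.38, -0.84 and -1.66 on untreated arrays 1 to 3. The difference was -0.03 between the groups, with an interval from -0.67 to 0.60 (limma, adjusted p = 0.983). Between the positions it was 0.61 ± 0.19 (SE; limma, adjusted p = 0.128). For a second Cry1 probe 0 of 6 arrays were well above background.

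Cry2, the other Cryptochrome, had log2 levels of 0.55, 0.09 and 1.30 on PNP arrays 1 to 3, against -0.27, 0.08 and 0.50 on untreated arrays 1 to 3. It had the largest positive group difference of the 10, 0.54, with an interval from -0.23 to 1.32, and the groups overlapped (limma, adjusted p = 0.630). Its arrays at the 2 positions overlapped, with a difference of 0.40 ± 0.34 (SE; limma, adjusted p = 0.559).

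Nr1d1 encodes REV-ERB alpha, the repressor of Arntl. It had log2 levels of -0.06, -0.91 and 0.09 on PNP arrays 1 to 3, against -0.87, 0.49 and -1.18 on untreated arrays 1 to 3. The arrays at position 2 were the 3 highest, and those at position 1 lay clearly below them in both groups. The group difference was 0.23 with an interval from -0.79 to 1.25 (limma, adjusted p = 0.893). By position Nr1d1 averaged 0.17 ± 0.29 at position 2 and -0.99 ± 0.17 at position 1 (SD, n = 3 each). In the fit with treatment it was 2.33-fold higher at position 2, a log2 difference of 1.22 ± 0.22 (SE), and passed (limma, adjusted p = 0.0386). It rose at position 2 by 1.36, 1.12 and 1.00 on slides 1 to 3.

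Nr1d2, which encodes the related REV-ERB beta, was dim. It had log2 levels of -2.06, -2.95 and -2.62 on PNP arrays 1 to 3, against -2.21, -2.51 and -2.57 on untreated arrays 1 to 3. Neither the groups (difference -0.11, interval from -0.72 to 0.49; limma, adjusted p = 0.912) nor the positions (0.25 ± 0.26, SE; limma, adjusted p = 0.650) were separate. Its second probe had a position difference of 0.69 ± 0.32.

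Dbp, the D-box activator of clock output, showed the largest difference of the 10 between the positions. It had log2 levels of 3.96, 2.08 and 4.12 on PNP arrays 1 to 3, against 2.44, 4.34 and 2.31 on untreated arrays 1 to 3. The values fell into 2 narrow sets by position, and each group held both. The group difference of 0.35 had the widest interval of the 10, from -1.15 to 1.85 (limma, adjusted p = 0.886). By position Dbp averaged 4.14 ± 0.19 at position 2 and 2.28 ± 0.19 at position 1 (SD, n = 3 each). In the fit with treatment it was 3.90-fold higher at position 2, a log2 difference of 1.96 ± 0.18 (SE), and passed (limma, adjusted p = 0.0156). By p-value it ranked 6 among the 21479 genes and transcripts. Within PNP cells the difference between positions was 1.96 and within untreated cells 1.96, and on slides 1 to 3 it was 1.90, 1.64 and 2.05. With position in the fit, PNP cells differed from untreated cells by -0.30 ± 0.18 (SE; limma, adjusted p = 0.456), and by -0.30 both within position 1 and within position 2. The second Dbp probe had a position difference of 2.16 ± 0.22, which also passed at the level of probes.

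Tef, a relative of Dbp that binds the same D-box, had log2 levels of 3.26, 2.35 and 3.01 on PNP arrays 1 to 3, against 2.42, 2.98 and 2.57 on untreated arrays 1 to 3. The arrays at position 2 again lay above all those at position 1. The group difference was 0.22 with an interval from -0.43 to 0.87 (limma, adjusted p = 0.826). The position difference was 0.63 ± 0.19 (SE) for its brightest probe and did not pass (limma, adjusted p = 0.121). The other 2 probes, which carry the accession of a second Tef transcript, had 1.08 ± 0.20 and 0.86 ± 0.17. Both passed when every probe was its own unit (limma, adjusted p = 0.0356 and 0.0442). The first of these was dim, with log2 levels from -3.89 to -2.33.

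**Figure D3:**
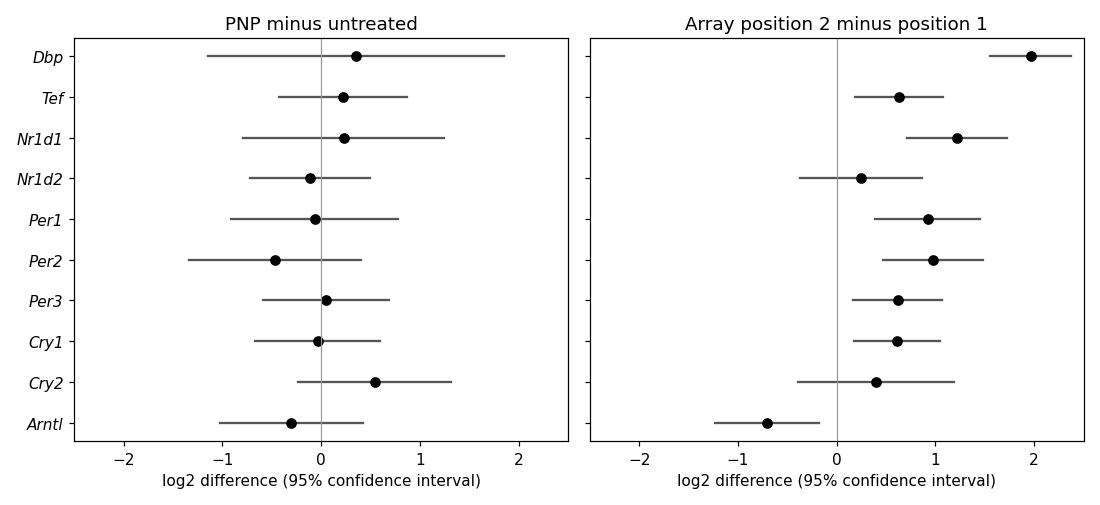
Log2 differences of the 10 clock genes with 95% confidence intervals, PNP minus untreated (left) and array position 2 minus position 1 with treatment in the fit (right). All 10 intervals on the left include 0, while Dbp, at 1.96, and Nr1d1, at 1.22, lie farthest to the right in the right panel and Arntl, at -0.70, is below 0.

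Over the 17 member probes that passed the filter, 5 were called higher and 1 lower at position 2, against 3.35% of the 28208 probes called in either direction (limma). They belong to 4 genes, Dbp, Tef, Nr1d1 and Arntl, and probes of 1 gene share its RNA. Between PNP and untreated cells 0 of the 17 were called (limma, adjusted p of 0.633 or more) and 0 had an unadjusted p under 0.05. Their group differences ran from -0.58 to 0.54.

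**Figure D4:**
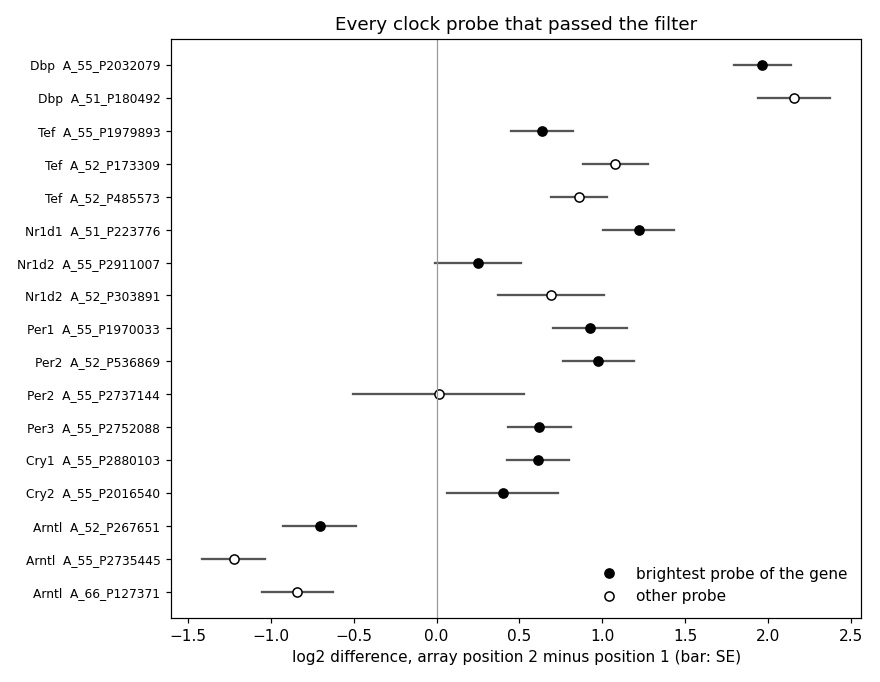
Log2 difference between array position 2 and position 1 for each of the 17 clock probes that passed the filter, with SE bars. Filled points are the brightest probe of a gene and open points its other probes. The 2 Dbp probes lie near 2, the 3 Arntl probes lie below 0 and the second Per2 probe lies at 0.01.

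The members thus had a median log2 difference of 0.01 between PNP and untreated cells, where all genes had -0.03, and of 0.63 between position 2 and position 1, where all genes had 0.07. With position in the fit, the median between PNP and untreated cells was -0.19 for the members and -0.05 for all genes. On each slide the array at position 2 can be set against its neighbour at position 1: 9 of the 10 members had the same sign on all 3 slides, against 52.6% of all genes, and Nr1d2 did not. The count goes by sign alone and includes Cry2, with 0.36, 0.04 and 1.21 on slides 1 to 3, and Per2, with 0.08 on slide 2. Slides 1 and 3 each hold 1 group only, and slide 2 sets PNP replicate 1 against untreated replicate 3. Whether the effect of PNP differed between the positions was tested as an interaction, and no member passed (limma, adjusted p of 1.00), against 0% of all genes. In the same test 0 members had an unadjusted p under 0.05, against 1.62% of all genes.

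**Figure D5:**
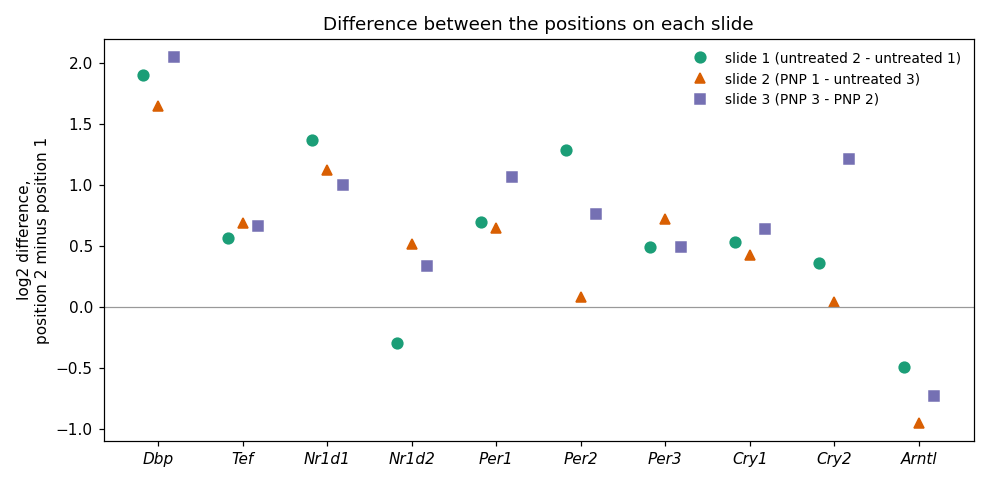
Log2 difference between the array at position 2 and the array at position 1 on each of the 3 slides, for the 10 clock genes. Dbp lies between 1.64 and 2.05 on all slides, Nr1d1 between 1.00 and 1.36, and Arntl between -0.95 and -0.49, while Nr1d2 changes sign.

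The calls between positions rest on few arrays. Without untreated replicate 1, 2 or 3, or without PNP replicate 2, neither Dbp nor Nr1d1 passed, and without PNP replicate 3 only Dbp did (limma; adjusted p for Dbp from 0.055 to 0.179 where it was lost), although the Dbp difference stayed between 1.87 and 2.06 under all settings. Without any filter on dim probes, which tests more units, neither passed (limma, adjusted p = 0.196 for Dbp and 0.266 for Nr1d1).

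Other genes of the clock were described from 3 lists, each gene by its brightest probe. None of the 27 that were measured passed between the groups or between the positions (limma). Other settings called up to 9 of them between the positions. The 9 came with array weights, which called 5255 of all 21479 genes and transcripts. At an unadjusted p under 0.05 there were 3 between the groups, against 9.93% of all genes, and 8 between the positions, against 20.5% of all genes. Of these 8, 6 were higher at position 2 and 2 lower, against 11.4% and 9.2% of all genes. The groups did not overlap for 4 of the 27, against 15.2% of all genes. Hlf was higher in PNP cells, and Bhlhe40, Csnk1e and Timeless were lower. The positions did not overlap for 7 that were higher and 6 that were lower at position 2, against 11.9% and 10.5% of all genes. Npas2, Rora, Rorb, Fbxl21 and Lonrf3 did not pass the filter or had no probe matched to their symbol.

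Among 8 measured partners and competing factors, 0 were called. Bhlhe41, an E-box repressor, had a position difference of 0.55 ± 0.19 (SE; limma, adjusted p = 0.164), with all arrays at position 2 above those at position 1, and its relative Bhlhe40 had -0.18. Another Bhlhe41 probe had 1.16 ± 0.20 and passed when every probe was its own unit (limma, adjusted p = 0.0327). Clock, the partner of ARNTL, had -0.76 ± 0.37, and Arntl2, a relative of Arntl, had -0.38. Ciart, a repressor of the ARNTL and CLOCK pair, had 0.33, while Nfil3, which competes for D-boxes, and Hlf, a further D-box activator, had 0.07 and -0.07, with signs that turn under normexp background correction. Between PNP and untreated cells, Hlf had -2.64, -2.49 and -2.56 on PNP arrays 1 to 3, against -3.04, -3.06 and -3.04 on untreated arrays 1 to 3. The Hlf groups did not overlap, as in 15.2% of all genes. The difference of 0.49 ± 0.19 (SE) did not pass (limma, adjusted p = 0.443). With normexp background correction the Hlf difference was 0.0952. Bhlhe40 had 1.51, 1.73 and 1.62 on PNP arrays 1 to 3, against 2.25, 1.97 and 2.06 on untreated arrays 1 to 3. These Bhlhe40 groups did not overlap either, with a difference of -0.47 ± 0.20 (SE; limma, adjusted p = 0.484), and Clock had 0.56 ± 0.42.

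Among 8 measured modifiers of clock proteins, 0 were called. Btrc, a ubiquitin ligase subunit that acts on PER proteins, had the smallest p of the 27 between the positions, with 0.84 ± 0.19 (SE; limma, adjusted p = 0.0634). The kinase Csnk1d had 0.66 for its brightest probe. The median of its probes equalled its middle probe on every array, with -0.33, and its dimmest probe had 0.34, so its probes disagree. The deubiquitinase Usp2 had 0.68. Fbxw11, Gsk3b and Timeless had values from -0.25 to -0.23 for their brightest probes. Further Gsk3b probes had 0.56 ± 0.17 and -0.85 ± 0.19 (SE), so its probes disagree. The kinase gene Csnk1e had -0.01 for its brightest probe. The median of its probes equalled the same middle probe on every array, with -1.20, and passed (limma, adjusted p = 0.0275). Its remaining probe had -0.21 ± 0.25 (SE), so its probes disagree. Between the groups, Timeless had a difference of -0.50 ± 0.22 (SE; limma, adjusted p = 0.503).

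Among 11 measured output genes, 0 were called. Noct, which encodes the rhythmic enzyme nocturnin, had levels of 2.06, 1.99 and 1.93 at position 2 (PNP replicates 1 and 3 and untreated replicate 2), against 2.62, 2.75 and 2.56 at position 1 (PNP replicate 2 and untreated replicates 1 and 3). Its positions did not overlap, with a difference of -0.66 ± 0.18 (SE; limma, adjusted p = 0.0987). Tsc22d3, a glucocorticoid-induced gene, had 0.83 ± 0.22 (limma, adjusted p = 0.0974). Another Tsc22d3 probe had 1.01 ± 0.17 and passed when every probe was its own unit (limma, adjusted p = 0.0294). Por and Alas1, of the cytochrome P450 and heme pathways, had 0.31 and 0.36, Nampt, of NAD synthesis, 0.27, and Tspan4 0.11. The cell cycle kinase gene Wee1, an E-box target, had -0.39, Coq10b -0.37, and the Kruppel-like factors Klf9 and Klf10 -0.26 and -0.27.

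The genes whose levels over the 6 arrays were most like those of Nr1d1, among 12769 other named genes well above background on all arrays, were Upk1a, Tmem245, Atf6, 4933405L10Rik and 2810410L24Rik, with Pearson correlations from 0.995 to 0.997. Those most like Arntl were Zfp229, Arsj, Morrbid, Nars2 and Wdr36, with correlations from 0.980 to 0.989. These points share the array positions. None of these genes was in the lists of clock genes.

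Of the 16 measured markers of cell types, 1 passed between the positions, against 2.54% of all genes, and 0 between the groups, against 0% (limma). The summed level of the 9 Sertoli cell markers ran from 3.10 to 3.35 at position 2 and from 3.45 to 3.74 at position 1 on the log2 scale, and none of the 9 passed. Of the 2 measured macrophage markers, Cd68, a lysosomal protein gene, passed as higher at position 2, with a log2 difference of 1.16 (limma, adjusted p = 0.0365), and Csf1r had 0.11. Their summed level ran from 2.65 to 3.27 at position 2 and from 2.11 to 2.58 at position 1, and Adgre1 and Ptprc did not pass the filter. The 4 peritubular markers ran from 3.85 to 4.05 at position 2 and from 3.67 to 3.90 at position 1, and Sycp3, the only germ cell marker measured, from -2.95 to -2.40 and from -3.41 to -2.96. The part of these markers in the clock results was not tested.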

How the data were processed

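Total RNA of 6 TM4 samples was labelled with Cy3, per the labels' protocols. The deposited intensity values come from Agilent Feature Extraction, version 11.5.1.1 in the file headers but 10.7 in the submitters' processing notes, background-subtracted and not normalized between arrays. The authors' log2 table follows each array's signal (correlation across probes of 0.9997 or more), and its normalization is not given in the sources used here. The column medians are 4.75, and higher values mean more signal.

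Here outlier spots were dropped, log2 processed signals were averaged per probe and centred on the 75th percentile of their array. Kept were 28208 probes that all 3 arrays of at least 1 group flagged well above background. The brightest such probe stood for its gene. Accessions were matched without versions to RefSeq GRCm38.p6 names, since the headers name another build (33767 probes matched). The 21479 units were 13538 named genes and 7941 unnamed transcripts. Tests of groups and of positions used limma 3.58.1 (R 4.3.3, two-sided, Benjamini-Hochberg, threshold 0.05, statmod 1.5.0). The fit with both treatment and position was tried on simulated arrays with independent scatter. The group test without position in the fit was not simulated. Same-numbered arrays deviated against each other (r of -0.409, -0.553 and -0.406), and no label pairs them. All slides were scanned on 1 day.

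The members, lists and tests were chosen with earlier results of these data known. The genes named are the 10 members, 3 fixed lists of clock genes, of which some members are counted but not reported singly here, and the 5 genes most like Nr1d1 and Arntl. Alternatives covered background correction, scaling, filters, probe choice, variance model, weights, blocks for slide, position and replicate number, and leaving out each array.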

Additional observations from a re-analysis of the deposited data

How the results depend on the processing

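Among all genes, 0 passed between PNP and untreated cells, except 1114 with array weights, 104 with normexp background correction and array position as a block, 564 within array position 1 and 40 within position 2, where 1 array stands alone in its group and is assumed to vary like the other group; the replicate block gave 0, and no clock member passed in any of these. Leaving out each array gave 0 to 0. Between positions 545 genes passed, against 1171 with normexp, 888 with probes above background on all 6 arrays, 946 probes, 1392 with a robust variance trend, 5255 with array weights, 2054 with slide as a fixed block, 0 without a filter and 0 to 1048 on leaving out an array. The 2 members passing between positions became 4 with the robust trend, 8 with array weights, 4 with the slide block, 0 without a filter and 0 to 3 on leaving out an array. Beside Dbp and Nr1d1, Per2 also passed with quantile normalization, median centring, the authors' values and probes above background on all 6 arrays. Per1 also passed with normexp, and Tef with the median of its probes (limma, adjusted p = 0.0474 for Tef). Of the 27 other clock genes, 0 passed between positions, against 2 with normexp, 2 with the median of a gene's probes, 1 with probes above background on all 6 arrays, 4 with the robust trend, 9 with array weights, 5 with the slide block and 3 without PNP replicate 1. The interaction gave 7 genes with normexp and 0 with the other scalings. Median centring put the median of all genes between the groups at -0.14, against -0.03. The array weights stopped short of their convergence tolerance. The cause of these changes was not tested.

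The members' median between the groups, 0.01, was 0.58 with slide as a fixed block, which sets PNP replicate 1 at position 2 against untreated replicate 3 at position 1. Between positions their median of 0.63 was 0.535 with normexp, 0.57 with a percentile taken over detected probes, 0.70 with the slide block and 0.627 to 0.713 on leaving out an array.

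Group differences of members that passed no test turned sign as follows. Array position as a block gave -0.30 for Dbp, -0.18 for Nr1d1 and -0.16 for Per3, and with normexp as well -0.28, -0.26 and -0.21. Within position 1 Dbp had -0.30, Tef -0.14, Per3 -0.10 and Cry2 -0.0203, and within position 2 Dbp -0.30, Nr1d1 -0.48, Nr1d2 0.17, Per3 -0.21 and Arntl 0.0176. The slide block gave 0.52 for Nr1d2, 0.64 for Per1, 0.0802 for Per2 and 0.42 for Cry1. Array weights gave 0.18 for Per1 and 0.0347 for Cry1, normexp 0.0368 for Per1 and -0.0313 for Per3, the percentile over detected probes 0.0294 for Cry1, the median of a gene's probes 0.0283 for Nr1d2, median centring -0.0624 for Per3, quantile normalization -0.00273 for Per3 and the authors' values -0.00282. Leaving out an array gave -0.0174 to 1.01 for Dbp, -0.10 to 0.73 for Nr1d1, -0.36 to 0.0913 for Nr1d2, -0.37 to 0.35 for Per1, -0.15 to 0.27 for Per3 and -0.22 to 0.19 for Cry1.

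Position differences near 0 also turned. Array weights gave -0.0179 for Nr1d2 and -0.00068 for Nfil3, quantile normalization -0.00182 for Nfil3 and -0.0847 for Tspan4, the authors' values -0.00179 and -0.0847, normexp -0.0356 for Nfil3 and 0.0709 for Hlf, median centring 0.0178 for Csnk1e, and the median of a gene's probes -0.33 for Csnk1d. Leaving out an array gave -0.12 to 0.62 for Nr1d2, -0.0328 to 0.83 for Cry2, -0.10 to 0.0852 for Csnk1e, -0.0807 to 0.22 for Nfil3, -0.00451 to 0.22 for Tspan4 and -0.81 to 0.0329 for Wee1. The Per3 and Cry1 probes left out were well above background on 1 and 0 arrays.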
